A study of Mus musculus with 73 samples.

Results

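The tissues compared were the extraembryonic ectoderm (ExE) and the epiblast of wild-type mouse embryos at embryonic day E6.5. Members were chosen from the sample titles: all wild-type ExE libraries and all wild-type epiblast libraries, 22 of the 73 samples of the series, joined in pairs by the embryo number in the title. Each of 11 embryos gave 1 ExE and 1 epiblast library. The wider study disrupted Dnmt1, Eed, Rnf2 or the pair G9a and Glp and asked about parental imprints in these lineages. The wild-type libraries give the state of the undisturbed tissues. In 7 embryos the mother was BDF1 and the father CAST (Bdf1xCast); these were made by sperm injection into the oocyte and transferred as blastocysts to CD-1 females. In the other 4 the mother was CAST and the father BDF1 (CastxBdf1), from natural mating, so the direction of the cross and the mode of fertilisation cannot be told apart. All 11 were labelled wild type, 5 of them male and 6 female. Embryos were cut at the border of the tissues, the visceral endoderm was removed with enzymes and a narrow capillary, and a small number of cells of each tissue went into full-length cDNA and paired-end sequencing. The deposited values were counts of reads over sequence differences between BDF1 and CAST, so levels of different genes cannot be compared with each other. Strand use in counting is not given in the sources used here, so reads of overlapping genes may be shared, and such neighbours are named where they occur.

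The epiblast is the pluripotent layer that forms the body of the embryo, and the ExE is the trophoblast layer beside it that contributes to the placenta. FGF from the epiblast keeps trophoblast stem cells in the ExE dividing, and BMP4 from the ExE acts back on the epiblast, where NODAL, WNT and FGF signals form the primitive streak. Imprinted genes are expressed from the maternal or the paternal copy. Canonical imprints rest on DNA methylation inherited from the germ cells, while noncanonical imprints rest on histone marks of the oocyte and are known mainly from extraembryonic tissue.

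Promoter sequences are shown for Elf5 and Fgf5, the genes that mark the tissues, and for 4 noncanonical imprinted genes whose parental alleles are described further on. The Elf5 promoter is known to be methylated in cells of the embryo, and loss of that methylation goes with trophoblast fate. Each window runs from 250 bases before to 50 bases after a RefSeq gene start in GRCm38.p6, 5′ to 3′ on the gene's strand. Where a gene had several windows, the one nearest to the gene start of the deposited table was taken. CG dinucleotides, the sites of DNA methylation, are in capitals.
Elf5, chr2:103411848-103412147, plus strand: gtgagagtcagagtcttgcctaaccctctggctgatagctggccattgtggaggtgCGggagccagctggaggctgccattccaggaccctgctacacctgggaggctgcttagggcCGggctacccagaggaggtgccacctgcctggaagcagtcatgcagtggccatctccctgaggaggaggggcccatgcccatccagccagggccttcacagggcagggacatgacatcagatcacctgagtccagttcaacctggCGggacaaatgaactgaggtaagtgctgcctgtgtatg
Fgf5, chr5:98253934-98254233, plus strand: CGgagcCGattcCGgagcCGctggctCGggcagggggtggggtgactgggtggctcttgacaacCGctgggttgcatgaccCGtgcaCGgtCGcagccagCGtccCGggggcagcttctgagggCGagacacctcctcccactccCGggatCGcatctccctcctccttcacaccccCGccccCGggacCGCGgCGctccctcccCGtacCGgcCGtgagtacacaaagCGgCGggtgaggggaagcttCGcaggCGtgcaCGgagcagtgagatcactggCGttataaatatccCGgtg
Sfmbt2, chr2:10370201-10370500, plus strand: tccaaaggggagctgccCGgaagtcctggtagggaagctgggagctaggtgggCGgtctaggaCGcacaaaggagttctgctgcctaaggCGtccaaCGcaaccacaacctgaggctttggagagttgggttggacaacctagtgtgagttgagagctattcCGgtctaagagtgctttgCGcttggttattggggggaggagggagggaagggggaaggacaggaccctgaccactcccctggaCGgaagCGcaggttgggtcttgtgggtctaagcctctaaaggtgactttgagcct
Gab1, chr8:80880470-80880769, minus strand: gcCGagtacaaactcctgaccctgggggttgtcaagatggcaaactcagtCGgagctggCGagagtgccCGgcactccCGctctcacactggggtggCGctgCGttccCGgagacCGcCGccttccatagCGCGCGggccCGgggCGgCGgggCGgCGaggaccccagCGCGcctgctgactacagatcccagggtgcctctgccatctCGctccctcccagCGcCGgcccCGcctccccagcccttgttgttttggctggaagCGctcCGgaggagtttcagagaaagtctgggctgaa
Jade1, chr3:41555484-41555783, plus strand: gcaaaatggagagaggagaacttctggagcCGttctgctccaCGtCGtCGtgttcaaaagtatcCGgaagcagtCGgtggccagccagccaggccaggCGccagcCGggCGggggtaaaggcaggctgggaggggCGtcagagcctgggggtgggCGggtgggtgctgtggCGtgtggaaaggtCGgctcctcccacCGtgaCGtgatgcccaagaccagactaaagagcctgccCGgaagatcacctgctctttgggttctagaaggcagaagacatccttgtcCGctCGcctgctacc
Slc38a4, chr15:97055907-97056206, minus strand: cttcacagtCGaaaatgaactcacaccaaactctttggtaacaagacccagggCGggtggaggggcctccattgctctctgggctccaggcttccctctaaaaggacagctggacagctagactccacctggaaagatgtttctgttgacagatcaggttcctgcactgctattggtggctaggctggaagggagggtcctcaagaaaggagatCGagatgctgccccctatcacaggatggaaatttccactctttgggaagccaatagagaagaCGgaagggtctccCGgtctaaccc

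The motif counted was CG, which reads the same on both strands. The Elf5 window held 3 CG, and 76.7% of all 32851 promoter windows of this length held at least as many. The Fgf5 window held 29 (12.9% of windows held as many or more), Gab1 26 (16.9%), Jade1 18 (29.7%), Sfmbt2 9 (45.8%) and Slc38a4 5 (62.0%). The median window held 7. Methylation itself was not analysed here.

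In the Bdf1xCast cross, reads over polymorphisms numbered 1311863 to 3028267 per epiblast library and 2685835 to 3053690 per ExE library. In the other cross they numbered 2438871 to 2762831 per epiblast and 3355245 to 3720984 per ExE. The first principal component held 65.6% of the variance and separated the tissues in 22 of 22 libraries. On the plane of the first 2 components, the epiblast of embryo 55, which had the fewest reads, and the ExE of embryos 53 and 55 stood apart. They had the lowest values on the second component (-84.0, -46.3 and -25.7). The epiblasts of embryos 49 and 59 lay off the rest in the other direction (36.6 and 42.7). Markers of visceral endoderm summed to between 5.16 and 79.9 CPM (reads scaled to the same total of autosomal reads in each library) in 9 epiblast libraries, to 490.3 in embryo 55 and to 2531 in embryo 57, against 9.58 to 34.0 in ExE. Markers of giant cells and ectoplacental cone (3 of 5 markers are rows of the table) summed to 0 in 11 of 11 ExE libraries. In epiblast they summed to at most 1.55 CPM. Decidual markers summed to between 6.05 and 27.6 CPM in epiblast and to at most 1.40 CPM in ExE, so the tissues did not overlap. Of the 6 decidual markers, Prl8a2 and Hand2 had 0 reads in both tissues. Primitive streak markers ranged from 15.2 to 1016 CPM across the epiblasts.

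The labels were checked first on Elf5 and Fgf5. Elf5, a transcription factor of trophoblast stem cells (chromosome 2, 103411693 to 103450989, mm10), ranged from 0 to 13.2 CPM in the epiblasts with a median of 1.21. In ExE it ranged from 175.5 to 545.3 CPM with a median of 330.5, so every ExE library lay above every epiblast library. The log2 difference, ExE minus epiblast, was 6.94 ± 0.37 (SE, n = 11 embryos; adjusted p 1.0e-11). All adjusted p-values for single genes are from edgeR's quasi-likelihood test with the embryo as a block and Benjamini-Hochberg adjustment over all genes tested. Fgf5, a growth factor of the post-implantation epiblast (chromosome 5, 98254184 to 98277033), ranged from 289.4 to 584.2 CPM in epiblast and from 0 to 1.12 CPM in ExE. Its log2 difference was -9.24 ± 0.21, and it was lower in ExE in 11 of 11 embryos. Both genes had the direction that the tissue labels call for. The trophoblast gene Cdx2, below the count filter, was read at 0 CPM in 10 of 11 epiblasts (0.776 in embryo 57) and reached 9.15 CPM in ExE, where 10 of 11 libraries held reads; with no filter its log2 difference was 5.15 (adjusted p 4.7e-14). The pluripotency gene Pou5f1 was nearly unread here, at most 1.65 CPM in epiblast and 0 in ExE, and could not serve as a check. In bulk tissue, fewer cells of a type and less RNA per cell cannot be told apart.

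**Figure D1:**
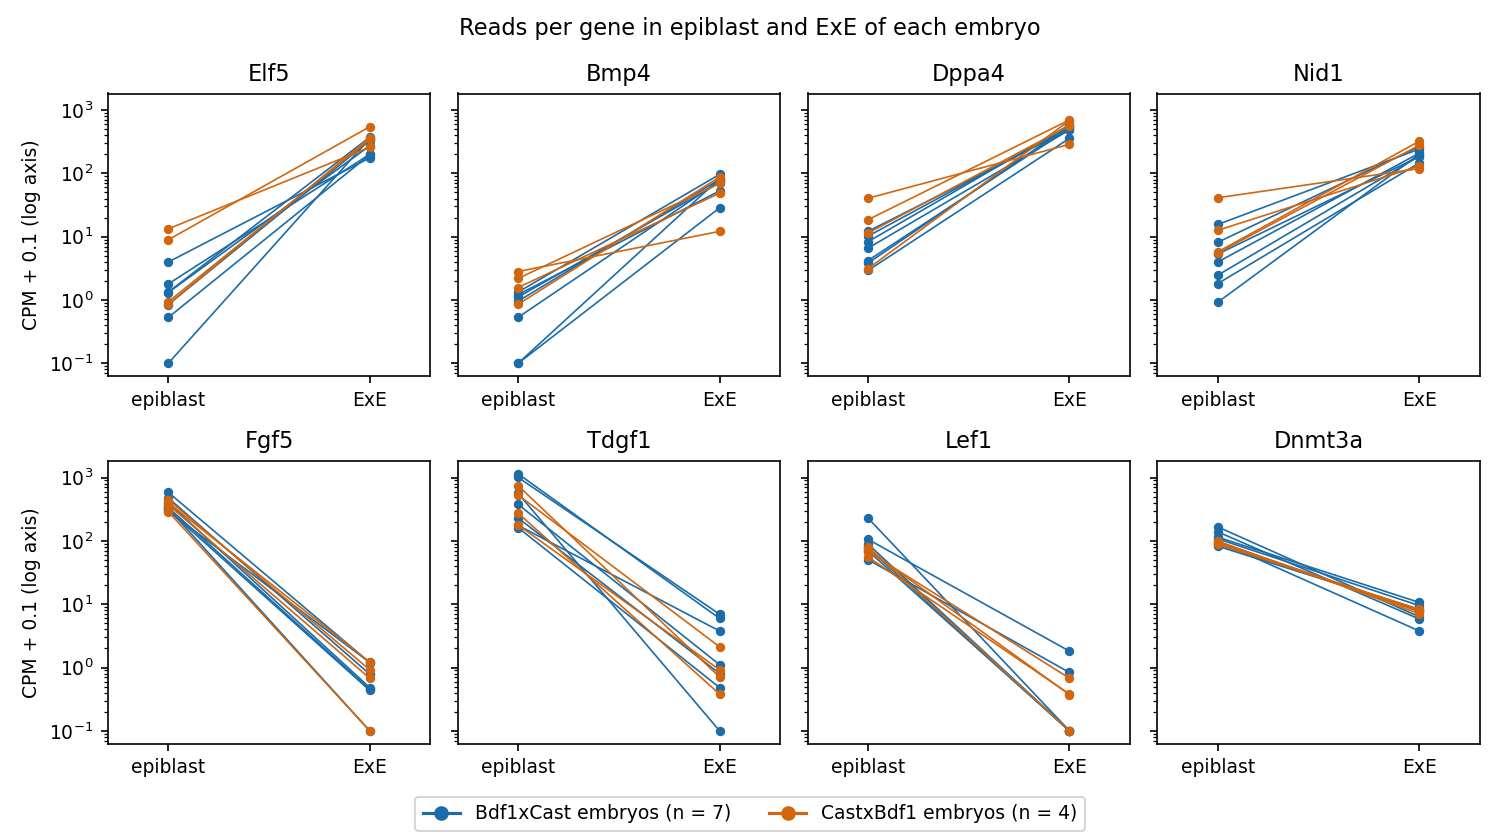
Reads of 8 genes in epiblast and ExE, as CPM plus 0.1 on a log axis, with a line for each embryo coloured by cross (7 Bdf1xCast, 4 CastxBdf1). Every line of Elf5, Bmp4, Dppa4 and Nid1 goes up and every line of Fgf5, Tdgf1, Lef1 and Dnmt3a goes down.

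The tissues differed in most of the genes read. Of 8999 autosomal genes tested, 3109 were higher and 3037 lower in ExE, together 68.3%. At least a 2-fold difference was called for 1528 genes higher (17.0%) and 1464 lower (16.3%). The tissues' CPM ranges did not overlap for 1434 of the genes tested (15.9%). Counts in the gene lists are to be read against these shares. A gene had to reach the count filter in as many libraries as 1 tissue holds, so some genes entered through the tissue where they are high, and the counts below describe the genes that entered and support nothing further. The difference between the crosses in the tissue effect passed for 0 of 8999 genes by edgeR (0.0%), with 528 at an unadjusted p under 0.05. The difference between the sexes passed for 0 (0.0%), with 256 at an unadjusted p under 0.05.

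The 5 genes in each direction with the widest log2 difference were taken among called genes whose tissues did not overlap and whose mean reached 10 CPM in the higher tissue. Lower in ExE were Fgf8, Fgf5, Gm9564, Trh (the precursor of thyrotropin-releasing hormone) and Gja1 (a gap junction connexin). Gja1 ranged from 276.4 to 727.7 CPM in epiblast and from 0.274 to 6.23 CPM in ExE. Higher in ExE were AU021092, Elf5, Wnt6, Gjb5 and Lgals3 (galectin 3, a sugar-binding protein). Gjb5, another gap junction connexin, ranged from 0.865 to 7.37 CPM in epiblast and from 110.6 to 897.3 CPM in ExE. The log2 difference was -8.20 ± 0.28 for Gja1 and 6.70 ± 0.24 for Gjb5. They were taken from opposite ends of the ranking, so their opposite signs follow from that choice. AU021092 had 1 read in all epiblasts together, which gives a ratio of ExE to epiblast of 302.3 with a counting interval of 54.3 to 11942.

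Of 25 listed regulators of trophoblast stem cells and ExE, 17 were tested, 14 rose in ExE, 1 fell and 2 did not pass. The median log2 difference over the 17 was 4.57, beside 0.01 over all genes tested. Bmp8b, a BMP ligand, ranged from 0.807 to 11.8 CPM in epiblast and from 195.8 to 392.1 in ExE (log2 difference 6.18 ± 0.28). Esrrb, a nuclear receptor needed by trophoblast stem cells, ranged from 0 to 5.43 CPM in epiblast and from 6.84 to 64.4 in ExE (5.86 ± 0.47). Neither gene overlapped between the tissues. Sox2, which acts in both lineages, was the listed gene that fell (-1.05 ± 0.27, adjusted p 0.00214), and its ranges overlapped, 9.84 to 24.6 CPM in epiblast and 4.58 to 26.7 in ExE. Reads over Sox2 may include those of the overlapping Sox2ot. Eomes, a T-box factor of both the ExE and the primitive streak, had a log2 difference of 0.36 that did not pass (adjusted p 0.151).

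Of 25 listed epiblast regulators, 18 were tested, 12 fell in ExE, 3 rose and 3 did not pass, with a median of -1.82. Tdgf1, the NODAL co-receptor, ranged from 161.7 to 1145 CPM in epiblast and from 0 to 6.85 CPM in ExE (log2 difference -7.96 ± 0.32). Trh ranged from 46.2 to 203.7 CPM in epiblast and reached 1.22 CPM in ExE (-8.36 ± 0.31). The 3 genes that rose run against the name of the list. Zfp42 (also called Rex1), a zinc finger gene of naive pluripotent cells, ranged from 3.04 to 17.2 CPM in epiblast and from 194.6 to 383.4 in ExE, with no overlap (5.31 ± 0.22). Utf1, a chromatin factor of pluripotent cells, was higher in ExE in 11 of 11 embryos, but its ranges of 43.6 to 279.0 and 105.5 to 505.6 CPM overlapped (1.45 ± 0.18). Grhl2, an epithelial transcription factor, was also higher in 11 of 11 (0.92 ± 0.15), by least in embryo 57 (15.9 and 16.4 CPM), and its call was lost within the CastxBdf1 embryos alone (adjusted p 0.0506).

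**Figure D2:**
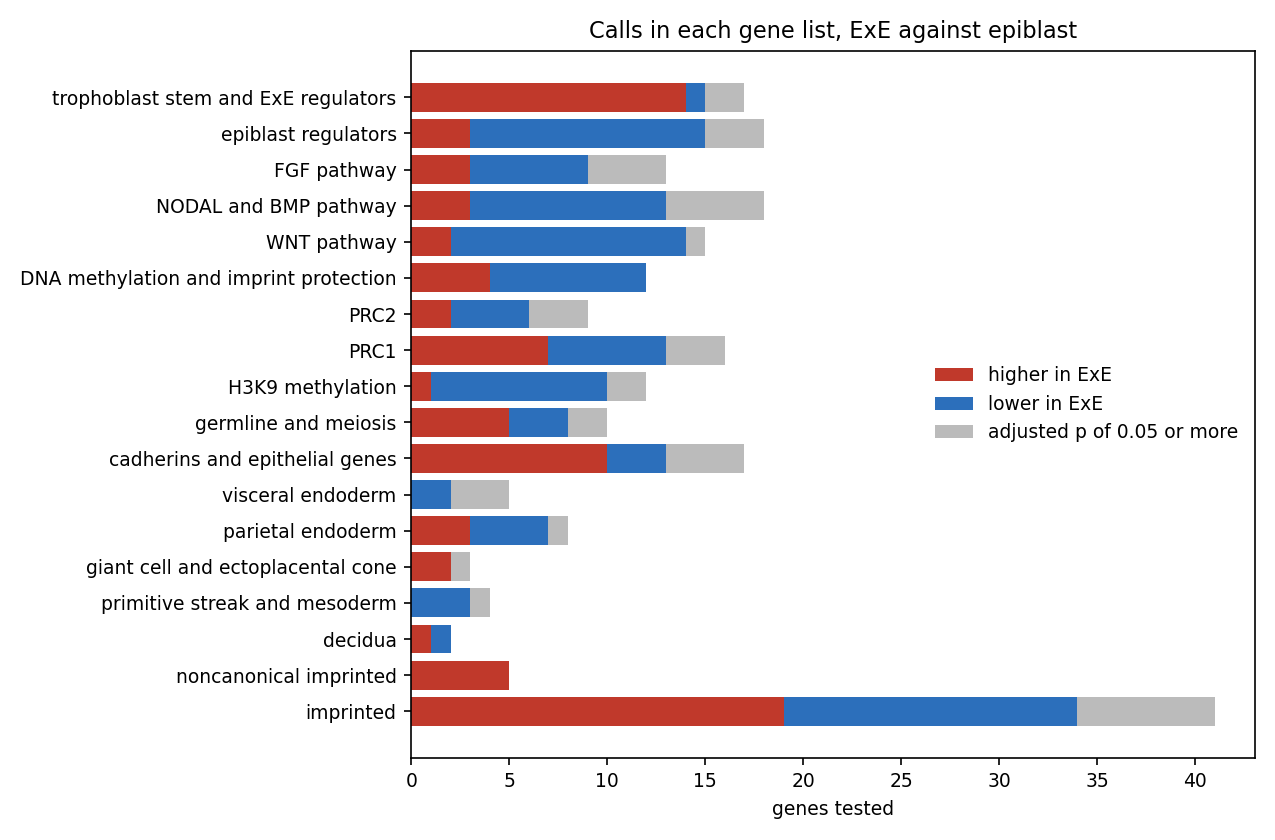
Genes tested in each of 18 lists (x axis), split into those higher in ExE, those lower in ExE and those with an adjusted p of 0.05 or more. The trophoblast list is mostly higher (14 of 17), the WNT list mostly lower (12 of 15), and the PRC1 list is split (7 higher, 6 lower of 16).

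Of 20 listed genes of the FGF pathway 13 were tested, 3 rose and 6 fell, together 69.2%, near the 68.3% of all genes. The 6 that fell were the 3 ligands tested (Fgf5, Fgf8 and Fgf15), the pathway's target transcription factor Etv5 and the feedback inhibitors Dusp6 (-0.63 ± 0.18) and Spred2 (-0.95 ± 0.21). Etv5 ranged from 263.9 to 481.0 CPM in epiblast and from 36.4 to 151.4 in ExE (-2.42 ± 0.16). Fgf8, a ligand of the primitive streak, had 0 reads in 11 of 11 ExE libraries and 3.72 to 142.0 CPM in epiblast, highest in embryo 55. Fgf15 ranged from 11.3 to 34.6 CPM in epiblast and had 2 reads in all of ExE, a ratio of 404.4 with a counting interval of 112.0 to 3340. The receptor Fgfr2 ran the other way, 1.11 to 17.8 CPM in epiblast and 70.2 to 182.5 in ExE (3.58 ± 0.16). Frs2, the adaptor that docks on FGF receptors, rose as well (2.12 ± 0.25), and so did the feedback inhibitor Spry1 (1.28 ± 0.33), whose ranges overlapped. The receptor Fgfr1 had a log2 difference of -0.07 that did not pass (adjusted p 0.64).

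Of 33 listed genes of NODAL and BMP signalling, 18 were tested, 3 rose and 10 fell (5 and 10 without embryos 53, 55 and 57). The BMP ligands Bmp4 and Bmp8b rose, and Bmp7 did not pass (0.88, adjusted p 0.104). With no filter on low counts, the ligand Bmp8a was higher in ExE (4.41, adjusted p 7.9e-13) and Bmp2 lower (-4.24, adjusted p 0.000613). Of the 13 listed genes that the filter left out, 3 were higher and 6 lower in that fit, beside 3830 and 4493 of all 25088 genes. Bmp4 ranged from 0 to 2.72 CPM in epiblast and from 12.0 to 96.3 in ExE (5.70 ± 0.33). The signal transducer Smad3 ranged from 16.6 to 38.2 CPM in epiblast and from 81.3 to 144.4 in ExE (1.96 ± 0.14). Among receptors, Bmpr1b fell (-5.91 ± 0.57), from 3.88 to 23.5 CPM in epiblast to at most 1.96 in ExE. Fst, the activin antagonist follistatin, had a median of 80.5 CPM and a highest value of 237.4 in epiblast and reached 1.22 in ExE (-7.96 ± 0.29). The other BMP receptors called, Bmpr1a (-1.02) and Bmpr2 (-0.96), fell as well.

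The WNT list was lower in ExE for 12 and higher for 2 of 15 tested genes (34 listed), with a median of -1.81. Lef1, a transcription factor that acts with beta-catenin, ranged from 50.4 to 229.6 CPM in epiblast and reached 1.71 in ExE (-7.83 ± 0.32). The secreted inhibitor Sfrp1 fell by 5.38 ± 0.40 and the receptor Fzd5 fell by 3.12 ± 0.22 on the log2 scale. Of the WNT ligands, Wnt6 rose, 9.55 to 26.4 CPM in ExE against 2 reads in all epiblasts, a ratio of 186.8 with a counting interval of 51.7 to 1543. Wnt7b, left out by the count filter, ranged from 0 to 2.33 CPM in epiblast and from 2.06 to 27.5 in ExE. With no filter, both Wnt7b (6.05) and Wnt11 (3.34, adjusted p 0.0266) were higher in ExE. The ligands Wnt3 (-6.235), Wnt5a (-6.06) and Wnt8a (-4.44) were lower in that fit, and Wnt3a, Wnt4 and Wnt9a did not pass. Of the 18 listed genes that the filter left out, 2 were higher and 9 lower in ExE with no filter. Of all 25088 genes in that fit, 3830 were higher and 4493 lower. The receptor Fzd1 rose by 0.82 ± 0.28 (adjusted p 0.0136), and that call was lost within either cross alone (adjusted p up to 0.0996).

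Every tested gene of the list for DNA methylation and imprint protection differed, 4 higher and 8 lower in ExE of 12 (15 listed). The de novo methyltransferase Dnmt3a ranged from 82.4 to 166.0 CPM in epiblast and from 3.67 to 10.6 in ExE (-3.79 ± 0.15). Dnmt3b, the other de novo enzyme, ranged from 1798 to 3618 CPM in epiblast and from 451.6 to 1123 in ExE (-1.93 ± 0.11). Their catalytically inactive partner Dnmt3l went the other way, 2.71 to 24.8 CPM in epiblast and 58.4 to 175.7 in ExE (3.59 ± 0.26). Dppa3, which protects maternal methylation in the zygote, was lower in ExE in 11 of 11 embryos (-2.75 ± 0.38). Dppa4 and Dppa2, a pair of DNA-binding proteins that work together, both rose. Dppa4 ranged from 2.83 to 40.4 CPM in epiblast and from 287.6 to 698.5 in ExE (5.86 ± 0.34), and Dppa2 from 0 to 4.79 and from 20.8 to 115.5 (5.27 ± 0.35).

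The genes disrupted elsewhere in the study were expressed in both tissues. Dnmt1, the maintenance methyltransferase, was 22.5 to 62.9 CPM in epiblast and 36.6 to 71.4 in ExE (0.46 ± 0.12, adjusted p 0.00299), a call lost within the CastxBdf1 embryos alone (adjusted p 0.181). Ehmt2 (G9a), an H3K9 methyltransferase, ranged from 0.404 to 6.43 CPM in epiblast and from 4.45 to 24.3 in ExE (2.45 ± 0.27). Its partner Ehmt1 (GLP) had a log2 difference of -0.12 ± 0.16 (adjusted p 0.514). Rnf2 of Polycomb complex PRC1 had 0.14 ± 0.15 (adjusted p 0.426) and Eed of PRC2 0.16 ± 0.21 (adjusted p 0.513), neither of which passed.

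Polycomb genes were called in both directions, as were all genes tested (34.5% higher and 33.8% lower). In PRC2, 2 rose and 4 fell of 9 tested (11 listed), together 66.7%, near the 68.3% of all genes. Phf19, an accessory protein that brings PRC2 to chromatin, ranged from 0 to 1.55 CPM in epiblast and from 6.59 to 36.3 in ExE (5.39 ± 0.40), while the core subunits moved less: Suz12 by 0.61 ± 0.12, a call lost within the CastxBdf1 embryos alone (adjusted p 0.114), and the methyltransferase Ezh2 by -0.52 ± 0.10. In PRC1, 7 rose and 6 fell of 16 tested (24 listed), together 81.25%, with a median of -0.05. Phc1, a subunit of canonical PRC1, ranged from 72.4 to 129.2 CPM in epiblast and from 5.07 to 19.9 in ExE (-3.15 ± 0.19), and the chromodomain subunit Cbx2 fell by 1.57 ± 0.15. Pcgf5, a subunit of variant PRC1, ranged from 16.8 to 50.8 CPM in epiblast and from 116.5 to 256.1 in ExE (2.90 ± 0.13), and Cbx8 (3.08 ± 0.41) and Scmh1 (2.85 ± 0.36) rose with it. In the list for H3K9 methylation (15 listed) 9 of 12 tested fell and 1, Ehmt2, rose. Cbx1, heterochromatin protein 1 beta, ranged from 237.3 to 501.2 CPM in epiblast and from 90.9 to 188.4 in ExE (-1.55 ± 0.12), and Atf7ip, a partner of SETDB1, fell by 1.65 ± 0.18.

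Among cadherins and other epithelial genes, 10 rose and 3 fell of 17 tested (18 listed). The tight junction claudins Cldn3 and Cldn4 rose by 5.90 ± 0.28 and 5.48 ± 0.31. Cldn3 ranged from 0.807 to 15.5 CPM in epiblast and from 54.1 to 391.8 in ExE. Vim, the intermediate filament protein vimentin, fell (-4.62 ± 0.36), from 15.9 to 59.4 CPM in epiblast to at most 5.14 in ExE. The tight junction genes Ocln (-0.83 ± 0.23) and Tjp1 (-0.77 ± 0.18) fell too, with overlapping ranges, and both calls were lost within the CastxBdf1 embryos alone (adjusted p 0.145 and 0.201). The cadherin Cdh1 had a difference of 0.10 that did not pass (adjusted p 0.526).

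Germline and meiosis genes were read in both tissues: 5 rose and 3 fell of 10 tested (24 listed). Tex19.1, a gene that restrains retrotransposons, ranged from 1.12 to 9.70 CPM in epiblast and from 111.7 to 474.5 in ExE (6.24 ± 0.26). The synaptonemal complex genes did not move together. Sycp1 rose (3.18 ± 0.45), while Sycp3 ranged from 31.3 to 126.8 CPM in epiblast and from 1.06 to 5.14 in ExE (-4.32 ± 0.28) and Syce2 fell by 0.84 ± 0.12. Sycp3 and Syce2 overlap Chpt1 and Gcdh on the genome, so their reads may be shared.

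Lists for other cell types had few genes past the count filter. For visceral endoderm 5 of 20 were tested and 2 fell, the endocytic receptor Lrp2 (-5.57 ± 0.39) and its adaptor Dab2 (-3.36 ± 0.39). Lrp2 ranged from 19.4 to 54.1 CPM in epiblast and from 0 to 3.77 in ExE. Dab2 reached 331.4 CPM in the epiblast of embryo 57, the library with the highest visceral endoderm markers, beside a median of 17.2. Without embryos 53, 55 and 57 the list had 2 genes higher and 2 lower. With no filter, 14 of the 15 listed genes that the filter left out were lower in ExE, beside 4493 of all 25088 genes tested. The median of all genes in that fit was -0.51. Among the 14, Foxa2, an endoderm transcription factor, ranged from 0 to 166.0 CPM in epiblast with 0 reads in ExE. The visceral endoderm marker sums had a median of 13.6 CPM in epiblast and 20.9 in ExE. The epiblasts of embryos 55 and 57 held 490.3 and 2531 CPM. Of the primitive streak list 4 of 16 were tested and 3 fell, Fgf8, Mixl1 (-7.10 ± 0.29) and T (-1.74 ± 0.41); without embryos 53, 55 and 57, 1 rose as well. Mixl1 ranged from 4.06 to 242.8 CPM among the epiblasts. T, the streak factor brachyury, ranged from 5.75 to 318.9 CPM in epiblast and from 9.85 to 61.9 in ExE, so the tissues overlapped. In embryos 49, 51 and 59 T was higher in ExE (16.5, 35.5 and 21.5 CPM) than in epiblast (5.75, 25.1 and 14.0). The streak markers of those epiblasts, T included, summed to 15.2, 68.3 and 67.4 CPM; their part in the difference was not tested. For parietal endoderm, 3 rose and 4 fell of 8 tested. Nid1, a basement membrane protein, ranged from 0.823 to 41.1 CPM in epiblast and from 119.0 to 321.8 in ExE (4.87 ± 0.38), while the collagens Col4a1 (-2.09 ± 0.29) and Col4a2 fell (-1.02 ± 0.33). The Col4a2 call was lost without embryos 53, 55 and 57 or within the CastxBdf1 embryos alone (adjusted p up to 0.369). Of the placental list for giant cells and ectoplacental cone, Phlda2 and Ascl2 rose, both of which are imprinted, and Flt1 did not pass. The decidual list had Cryab higher (1.67 ± 0.31) and Igfbp4 lower (-2.33 ± 0.31). Of the 9 decidual genes that the filter left out, 0 were higher and 4 lower in ExE with no filter. Among those 4 were Dcn (-7.61) and Pgr (-5.46), while the decidual markers Col1a1 (-1.87, adjusted p 0.286) and Des (0.27, adjusted p 0.88) did not pass. The part of carried-over cells in these values was not tested.

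Of 88 listed imprinted genes, 41 were tested for expression, 19 rose in ExE and 15 fell. H19, a maternally expressed noncoding RNA, ranged from 16.4 to 611.2 CPM in epiblast, highest in embryo 57, and from 1077 to 2257 in ExE (5.19 ± 0.36). Its neighbour Igf2, a paternally expressed growth factor that overlaps Igf2os, ranged from 0 to 4.27 CPM in epiblast and from 5.07 to 39.4 in ExE (4.88 ± 0.45). The maternal share of Igf2 reads in ExE ranged from 3.70 to 46.7% in Bdf1xCast and from 9.72 to 15.3% in CastxBdf1 embryos, on 15 to 144 reads. In the Prader-Willi region the paternally expressed genes Snhg14 (-3.82 ± 0.23) and Magel2 fell, and Magel2 had 2 reads in all of ExE against 7.95 to 19.4 CPM in epiblast. Peg12 of the same region, left out by the count filter, had a median of 1.55 CPM in epiblast and 5.07 in ExE, and was higher in ExE with no filter (2.21, adjusted p 2.8e-07). Zdbf2, also paternally expressed, ranged from 12.5 to 45.0 CPM in epiblast and reached 2.70 in ExE (-4.53 ± 0.26). All 5 listed noncanonical genes rose, Sfmbt2 by 6.00 ± 0.31, Gab1 by 3.37 ± 0.16, Slc38a4 by 2.22 ± 0.14, Smoc1 by 2.09 and Jade1 by 1.05.

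The maternal share of reads was then compared between the tissues. The test took maternal and paternal reads of each library together and fitted parental origin and strain as terms of their own, which the reciprocal crosses allow. Of 7568 genes tested, 31 shifted (0.41%), 15 toward the mother (0.198%) and 16 toward the father (0.211%) in ExE, and 441 had an unadjusted p under 0.05. Of the 31, 26 had the same direction in each cross on its own and 5 did not, and 11 are on the list of imprinted genes. Some are neighbours that may share reads: R74862 and Cd81 overlap, as do Trip4 and 2810417H13Rik, and Apoc2 and Apoc4-apoc2. The tissues' maternal shares did not overlap for 8 of the genes called and for no other gene of the 7568.

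**Figure D3:**
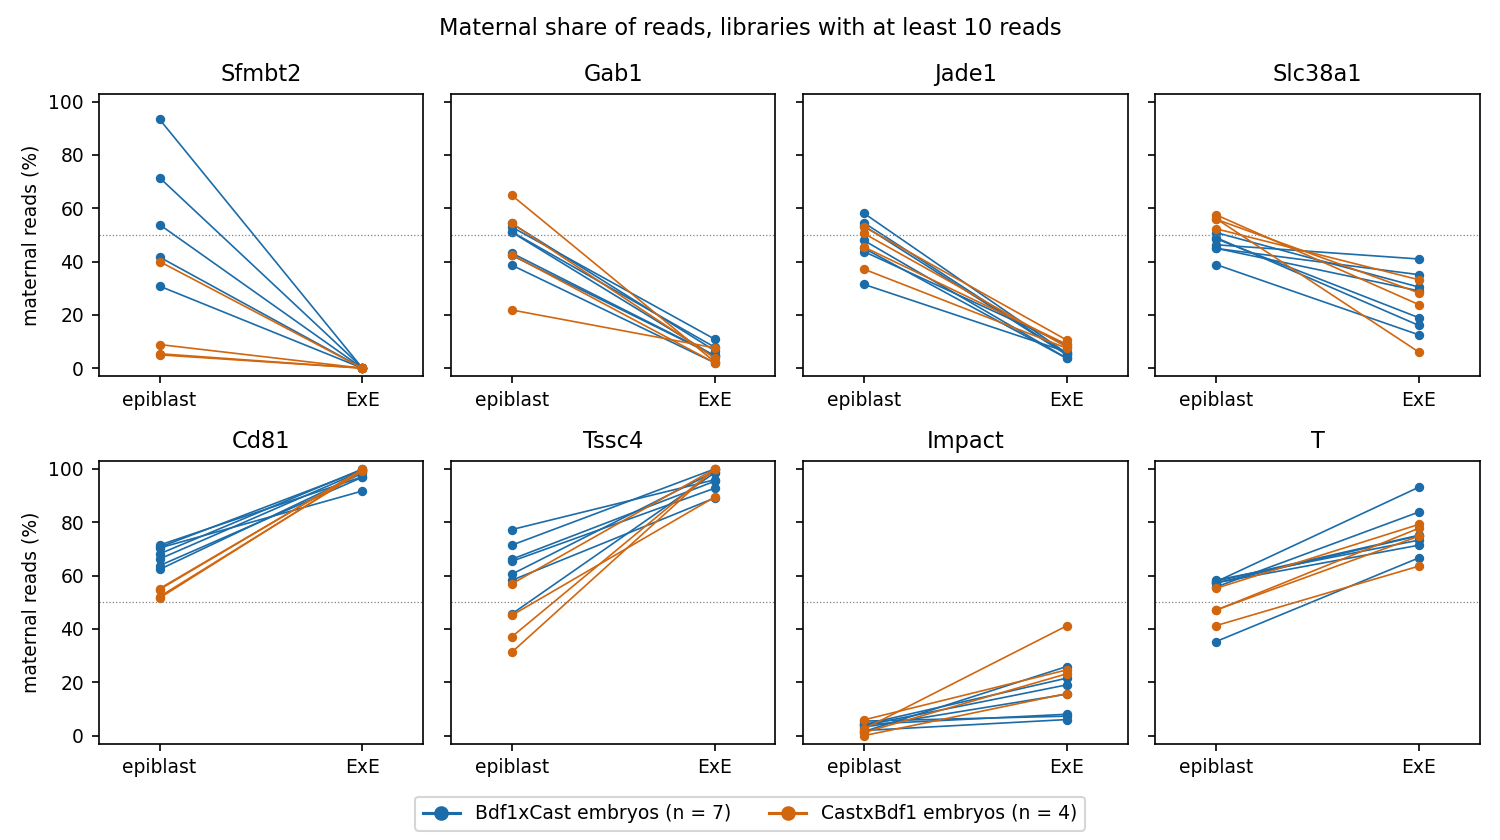
Maternal share of reads (y axis, percent) in epiblast and ExE for 8 genes, with a line for each embryo that had at least 10 reads in both tissues, coloured by cross, and a dotted line at 50. In ExE Sfmbt2, Gab1 and Jade1 lie near 0 and Cd81 and Tssc4 near 100 in both crosses. The epiblasts of Gab1, Jade1, Cd81 and Tssc4 lie nearer the middle, and those of Sfmbt2 spread from 5.00 to 93.3%.

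Noncanonical imprinted genes shifted toward the father. Sfmbt2, a Polycomb-related gene needed for the trophoblast, had a maternal share of 0 to 0.199% in 11 ExE libraries. In epiblast it ranged from 5.00 to 93.3% in the 9 libraries with at least 10 reads (median 13 reads), so its epiblast share is imprecise. In 9 of the ExE libraries that share rests on a ratio deposited to 2 decimals and is known only to within 0.5 percentage points. The log2 change of the maternal to paternal ratio was -11.39 ± 0.67 (adjusted p 1.0e-11), and -6.37 ± 0.55 (adjusted p 1.2e-08) when such values were moved by 0.5 points toward equal shares, an alternative chosen after seeing the data. By cross, the epiblast shares were 58.2% ± 24.8 (SD, n = 5) in Bdf1xCast and 14.8% ± 16.9 (n = 4) in CastxBdf1. Gab1, an adaptor of receptor tyrosine kinases, had a maternal share of 47.6% ± 6.13 (n = 7) in Bdf1xCast epiblast and 45.9% ± 18.4 (n = 4) in CastxBdf1, and 5.91% ± 2.87 (n = 7) and 3.99% ± 2.55 (n = 4) in ExE (-3.88 ± 0.29, adjusted p 1.5e-10). The lowest epiblast share of Gab1 was 21.8%, in embryo 57, whose epiblast also had the most Gab1 reads (76.4 CPM) and the highest visceral endoderm markers; the part of those cells was not tested, and without embryos 53, 55 and 57 the change was -4.62. Jade1, a subunit of histone acetyltransferase complexes, had 47.7% ± 8.90 and 46.5% ± 7.02 in epiblast and 5.44% ± 1.72 and 8.71% ± 1.36 in ExE (-3.61 ± 0.20, adjusted p 3.4e-13). Epiblast and ExE did not overlap for these 3 genes.

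The level of each allele was tested over the same 7568 genes, of which the maternal allele rose for 30.5% and fell for 28.2% and the paternal allele rose for 30.3% and fell for 28.1%. The paternal Sfmbt2 allele rose by 6.57 on the log2 scale, and rose with the moved values too (adjusted p 9.2e-18). The change of its maternal allele was -3.43 as deposited and 0.31 (adjusted p 0.545) with the moved values, so its direction cannot be read from these data. For Gab1 the paternal allele rose by 4.22 while the maternal allele changed by 0.17 (adjusted p 0.582). For Jade1 the paternal allele rose by 1.84 and the maternal allele fell by 1.75. Slc38a4, an amino acid transporter, was paternal in both tissues, with a median maternal share of 0.862% in epiblast and 0.56% in ExE, and its shift (-2.33 ± 0.49, adjusted p 0.0148) was lost without the embryo block (adjusted p 0.307) and without embryos 53, 55 and 57 (adjusted p 0.652). Leaving out embryo 55, 56 or 57 alone gave adjusted p-values of 0.167, 0.0512 and 0.759, and the highest epiblast share of Slc38a4 was 12.7%, in embryo 57. The ExE share of Slc38a4 rests on the rounded ratio in 10 libraries, and with the moved values its shift was -1.37 (adjusted p 0.363). Its paternal allele rose by 2.35. Smoc1 was not tested for its ratio, having at least 10 reads in 5 epiblast libraries, and its maternal share in ExE was 0 to 5.26% in 11 libraries.

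**Figure D4:**
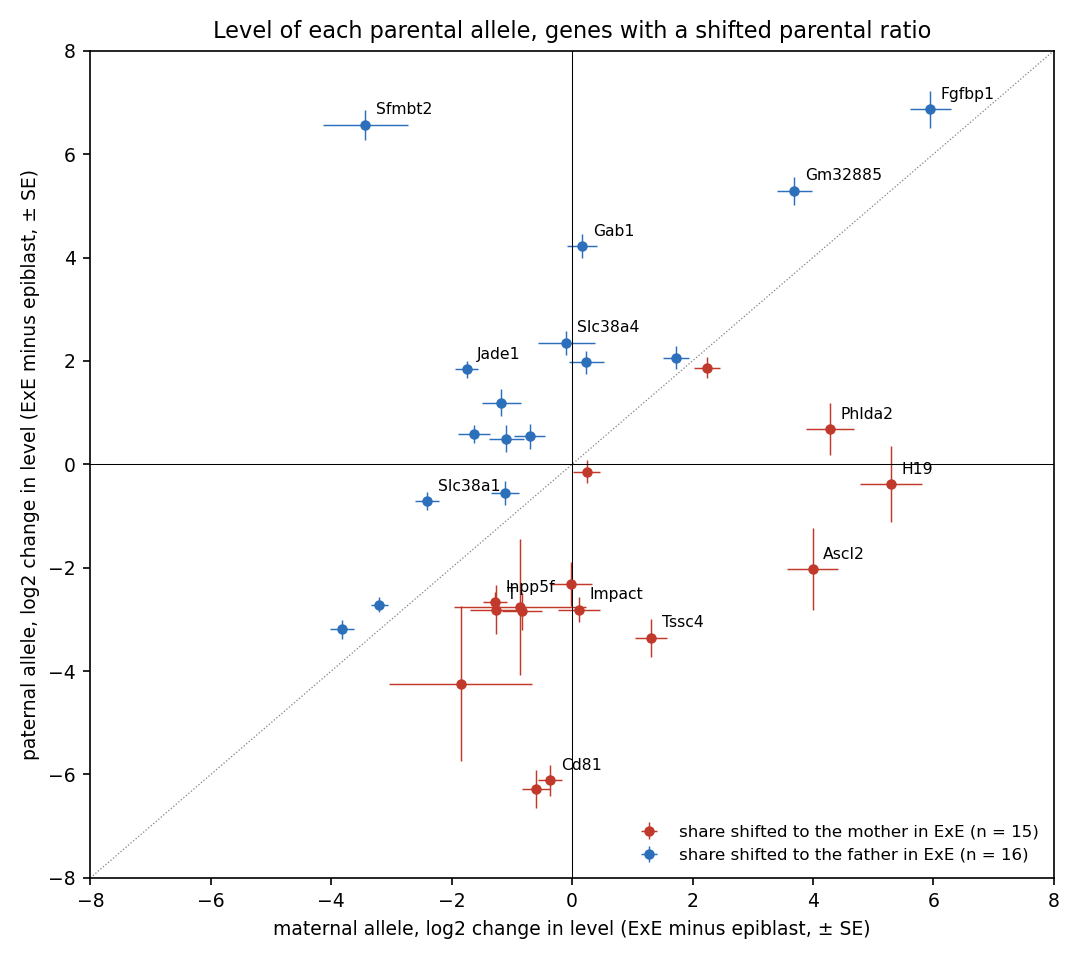
Change of the maternal (x axis) and the paternal allele (y axis) in level, log2 of ExE minus epiblast with SE, for the 31 genes with a shifted parental ratio, 15 toward the mother and 16 toward the father; the dotted line marks equal change. Sfmbt2 sits at -3.43 (0.31 with the moved values) and 6.57, Cd81 at -0.36 and -6.11, and H19 at 5.30 and -0.39 (1.47 with the moved values).

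Near these genes lay further calls. 2400006E01Rik and Platr4, noncoding genes 27260 bases and further from Jade1, shifted with it (-2.04 ± 0.25 and -1.84 ± 0.28). Gm32885 and Slc38a1 lie near Slc38a4 on chromosome 15. Slc38a1, another amino acid transporter 351910 bases from Slc38a4, had maternal shares of 46.2% ± 3.92 and 55.4% ± 2.23 in epiblast and 26.1% ± 10.5 and 22.8% ± 11.8 in ExE (-1.69 ± 0.20). Gm32885 shifted by -1.13 ± 0.23, or by -1.94 without embryos 53, 55 and 57, and by -0.95 (adjusted p 0.0438) with the moved values; its call was lost without the embryo block (adjusted p 0.49), without embryo 50 (0.0558) and without embryo 58 (0.0621). On chromosome 7 the adjacent genes Zfp473 (-1.68 ± 0.30) and Vrk3 (-1.24 ± 0.25) shifted together, 12 bases apart, and the Zfp473 call was lost without the block (adjusted p 0.0576). The Vrk3 call was lost without embryo 56 (adjusted p 0.0772) or embryo 59 (0.108). 2410003L11Rik on chromosome 11 shifted by -2.59 ± 0.44.

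On distal chromosome 7, Cd81, Tssc4, Ascl2 and Phlda2 of the cluster around Kcnq1, and H19 of the neighbouring domain, shifted toward the mother. Cdkn1c, Nap1l4 and Tnfrsf22, listed as maternal in that cluster, were tested and not called. The median maternal shares in epiblast and ExE were 100% and 100% for Cdkn1c and 50.0% and 54.5% for Nap1l4, and Tnfrsf22 had 92.9% in epiblast and 90% in ExE. Cd81, a tetraspanin, had a maternal share of 67.6% ± 3.58 and 53.4% ± 1.81 in epiblast of the Bdf1xCast and CastxBdf1 embryos, and 97.6% ± 2.82 and 99.6% ± 0.269 in ExE (5.96 ± 0.27, adjusted p 4.3e-15). The tissues did not overlap. Its paternal allele fell by 6.11 on the log2 scale, while the maternal allele changed by -0.36 (adjusted p 0.117). Tssc4, a splicing factor, had 63.5% ± 10.2 and 42.6% ± 11.1 in epiblast and 95.8% ± 3.86 and 97.4% ± 5.29 in ExE (4.74 ± 0.43), and here the maternal allele rose by 1.31 and the paternal fell by 3.36. Ascl2, a transcription factor of the placenta, had 97.6 to 100% maternal reads in ExE and 36.4 to 100% in the 8 epiblasts with at least 10 reads (6.31 ± 0.54). Those epiblast shares rest on 11 to 72 reads and are imprecise. Phlda2, a growth-restraining placental gene, and H19 were mostly maternal in both tissues: Phlda2 by 92.0% and 99.0%, and H19 by 84.8% and 100% (medians). Their ratios shifted by 3.17 ± 0.36 and 3.98 ± 0.77, and their maternal alleles rose by 4.28 and 5.30. The ExE shares of both rest on the rounded ratio in 11 of 11 libraries, and with the values moved by 0.5 points toward equal shares the shifts were 2.43 (adjusted p 1.2e-07) and 3.01 (adjusted p 7.8e-05). Without embryos 53, 55 and 57 the shift of H19 was 8.60 and that of Tssc4 7.11; without embryo 57 alone that of H19 was 8.14.

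The paternally expressed genes Impact and Inpp5f were less paternal in ExE. Impact, a regulator of translation, had a maternal share of 0 to 5.91% in epiblast and 6.03 to 41.2% in ExE (3.08 ± 0.32, adjusted p 2.7e-07), with no overlap. Its paternal allele fell by 2.81 while the maternal changed by 0.11 (adjusted p 0.793). Inpp5f, an inositol phosphatase gene that holds an imprinted transcript, went from 24.4% ± 4.79 and 37.7% ± 8.02 in epiblast to 46.7% ± 11.3 and 61.3% ± 8.51 in ExE (1.38 ± 0.24). T, near equal between the alleles in epiblast, shifted toward the mother, from 54.2% ± 8.39 and 47.7% ± 5.76 to 76.9% ± 8.83 and 73.8% ± 7.09 (1.54 ± 0.19), higher in ExE in 11 of 11 embryos. Total T reads in ExE were few, with a median of 88, and T2 overlaps T.

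Of 33 listed imprinted genes that were tested for the ratio, 14 had a median share of at least 90% from the listed parent in both tissues, 7 in ExE alone, 1 (Impact) in epiblast alone and 11 in neither. The 7 in ExE alone were Sfmbt2, Gab1, Jade1, H19, Tssc4, Cd81 and Ascl2. These medians pool the crosses, and for Sfmbt2 and H19 the CastxBdf1 epiblasts lay near or past the 90% limit. In embryos 56 to 59 the epiblast maternal shares were 90.9, 98.0, 94.6 and 87.6% for H19. For Sfmbt2 they were 40.0, 8.86, 5.00 and 5.41%. Among the 14 were Peg3, Mest, Snhg14, Kcnq1ot1, Meg3, Grb10 and Cdkn1c. Cdkn1c, a cell cycle inhibitor, was maternal in both (median 100%) and rose in ExE by 2.65.

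Further calls of the parental ratio were as follows. Rps6ka2 (2.11 ± 0.42), Pnldc1 (2.52 ± 0.58) and Tmem242 (0.38 ± 0.06) shifted toward the mother, and Fgfbp1 (-0.97 ± 0.20) toward the father. The calls of Fgfbp1, Car4, Mt1 and Tmem242 were lost without the embryo block, with adjusted p-values of 0.18, 0.885, 0.0756 and 0.963. With no strain term the calls of Rps6ka2, Phlda2 and H19 were lost (adjusted p 0.0523, 0.0523 and 0.0551), and that of Rps6ka2 was lost with limma too (0.206). Both alternatives lost the calls of Fgfbp1, Car4, Mt1, Pnldc1, Trip4, Vrk3, Zfp473, Gm32885, Slc38a4, Apoc2, Apoc4-apoc2 and 2810417H13Rik, and limma that of Tmem242. Single embryos also decided some: Fgfbp1 was lost without embryo 51, 53, 54 or 59 (adjusted p up to 0.202), Pnldc1 without embryo 48, 49, 50, 51 or 53 (up to 0.107) and with the moved values (0.0503), and Trip4 (-0.50 ± 0.09) without embryo 59 (0.0541). Without embryos 53, 55 and 57, Fgfbp1 was lost and Apoc2, Apoc4-apoc2 and Pnldc1 had too few reads to be tested. Apoc2 and Apoc4-apoc2, genes of visceral endoderm, shifted by 2.55 ± 0.47 and 2.41 ± 0.40 on 5 embryos with at least 10 reads in both tissues. Of the epiblast reads of Apoc2, embryo 57 alone had 9787, beside at most 215 in any other epiblast. For 5 of the 31 genes, 2810417H13Rik, Car4, Mt1, Apoc2 and Apoc4-apoc2, the shift had opposite signs in the crosses.

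Shifts by strain were called more often than shifts by parent. The tissue shift of the BDF1 to CAST ratio passed for 814 of 7568 genes (10.8%), 371 toward BDF1 (4.9%) and 443 toward CAST (5.85%) in ExE. The same term measures any difference between the crosses in a parental shift, so it cannot tell these apart. The 814 include Phlda2, whose BDF1 share over both crosses was 51.6% in epiblast and 49.1% in ExE. Ptprs, a receptor-type phosphatase, had BDF1 shares of 32.4 to 71.8% in epiblast and 95.5 to 100% in ExE (log2 change 4.99 ± 0.25, adjusted p 2.1e-14). Pdpn, the glycoprotein podoplanin, had 25.0 to 69.4% in epiblast and 0 to 8.26% in ExE (-4.53 ± 0.34). Neither gene overlapped between the tissues. Cfap74 and the overlapping 5830444B04Rik shifted toward BDF1 (5.03 ± 0.85 and 4.85 ± 0.96), the latter a call lost without embryo 57 (adjusted p 0.125). H2-Q10 (-8.19 ± 0.73) and Gm35775 (-5.67 ± 0.43) shifted toward CAST. H2-Q10 belongs to a multigene family whose reads can be misassigned, and Gm35775 overlaps Pth1r, so both are uncertain. Frem2, named after its values were seen, was the 1 called gene with a mean BDF1 share on opposite sides of the range between 30% and 70%, 20.7% in epiblast and 82.3% in ExE (3.93 ± 0.69), and in embryo 55 its share fell, from 36.6% to 22.2%.

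**Figure D5:**
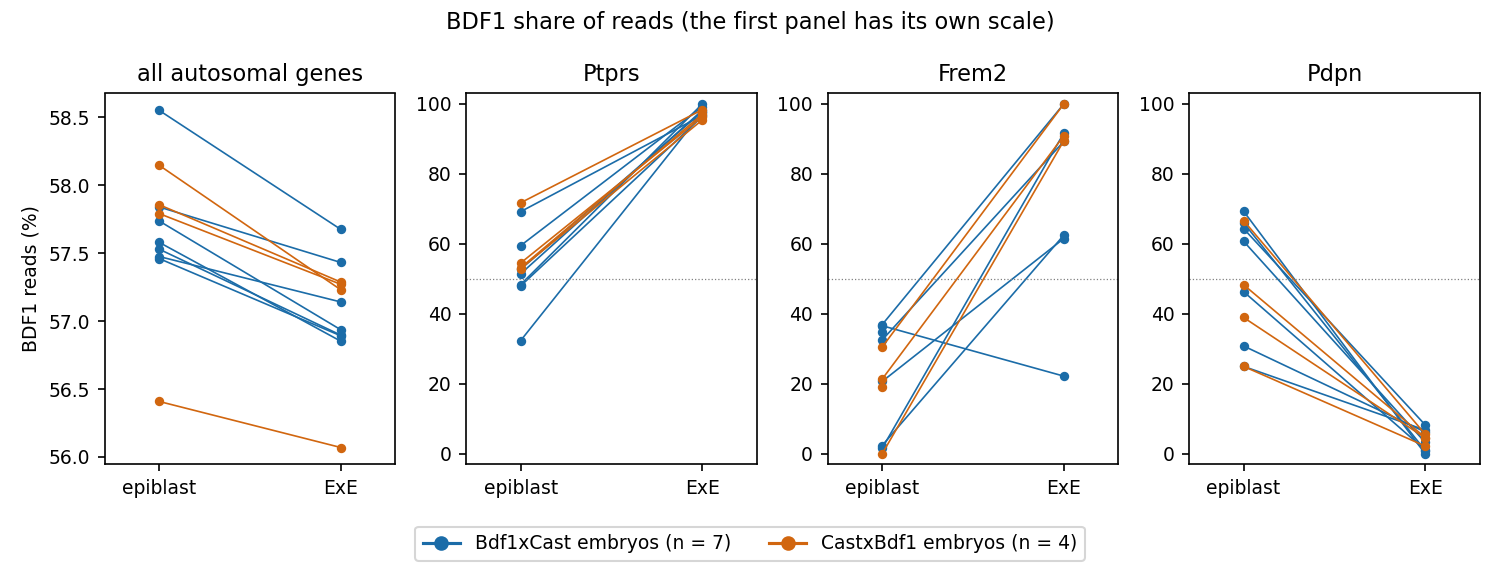
BDF1 share of reads (y axis, percent) in epiblast and ExE for all autosomal genes (own scale) and for Ptprs, Frem2 and Pdpn, with a line for each embryo coloured by cross. The line for all autosomal genes goes down in 11 of 11 embryos.

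Over all autosomal genes the maternal share was 52.0% in ExE and 52.2% in epiblast (means over 11 embryos), a difference of -0.182 ± 0.643 percentage points (SD; exact two-sided sign-flip permutation p 0.356). These means depend on the make-up of 7 Bdf1xCast and 4 CastxBdf1 embryos, so they cannot measure a maternal excess. In ExE the share was 56.9 to 57.7% in Bdf1xCast and 42.7 to 43.9% in CastxBdf1. The pooled difference likewise mixes strain with parent. The crosses went opposite ways, -0.621 ± 0.2 in Bdf1xCast (n = 7, exact permutation p 0.0156) and 0.587 ± 0.241 in CastxBdf1 (n = 4, exact permutation p 0.125), each the smallest p that its number of embryos can give. Counted by strain, the BDF1 share was lower in ExE in 11 of 11 embryos, by 0.609 points on average (57.1% against 57.7%; exact sign-flip permutation p 0.000977, the smallest that 11 embryos can give). This measure was chosen after the data were seen.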

How the data were processed

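RNA of 11 wild-type ExE and 11 wild-type epiblast libraries at E6.5 was analysed. Per the file headers, the deposited table gives, for 30546 genes in mm10 coordinates, a count of reads over BDF1/CAST polymorphisms, an allelic ratio (a score: the CAST share minus 0.5, rounded to 0.01) and an allelic score (a signed -log10 binomial p-value). The submitters' processing notes name STAR 2.5.0 and HTSeq; strand use is not given in the sources used here. Every value column could be mapped to a sample (0 left over). Members and gene lists were chosen with earlier results of these data known.

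Allele reads were recovered as the whole number fitting both the ratio and the score (196444 of 197117 scored values, 99.66%, within 0.0011 of the score); 652 values, with 5.82% of reads, lay at the score's limit and rest on the rounded ratio. Counts of 29557 autosomal genes were tested with edgeR 4.0.16 in R 4.3.3 (limma 3.58.1 and DESeq2 1.42.0 as alternatives): TMM scaling, edgeR's filter on low counts, the embryo as a block, two-sided quasi-likelihood tests, Benjamini-Hochberg threshold 0.05. A gene entered the ratio test if 3 or more libraries of every tissue and cross reached 10 reads, with terms for library, embryo by maternal allele, maternal allele by ExE and BDF1 allele by ExE. CPM are reads scaled to a common total of the library's autosomal reads. The embryo number pairs the tissues because both come from the same animal; their deviations correlated at 0.01 to 0.41, and 8 of 11 best with their own number within the cross. Alternatives were another scaling, test, filter, minimum and pairing, each cross alone and each embryo left out; leaving out embryos 53, 55 and 57, and moving values at the score's limit by 0.5 percentage points (to the edge of their rounding), were added after seeing the data. Named genes were Elf5 and Fgf5, 5 in each direction by log2 difference, up to 3 called genes in each direction per list, the disrupted genes, all parental calls with the noncanonical genes, and 3 strain calls in each direction; some genes that the rule names are not reported here. Intervals and floors cover counting error only. On simulated counts, the expression test found 42 of 50 genes changed 2-fold, with 7 false calls among 8999 genes. It found every gene changed 4-fold or 8-fold that passed the filter (45 and 43 of 50). The parental test found 41 of 50 at a log2 shift of 1 and 50 of 50 at 2, with 10 false calls among 7568. The simulation held no embryo effect and no tissue shift by strain, and all genes shared the same allelic spread. Rates for the real data were not measured.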

Additional observations from a re-analysis of the deposited data

Results flagged for a closer look

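Within groups of 4 to 7 libraries, 188 sets of values were tested for a sample far from the others, and 27 were found. Chance alone flags about 1 in 20 such groups. No explanation was tested for any of them.

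Embryo 55 stood apart in its epiblast, with Fgf8 at 142.0 CPM, Eed at 38.8 CPM, a maternal share of Slc38a4 of 6.33% and an autosomal maternal share of 58.5%. In its ExE the maternal shares of Gm32885 (7.00%) and Ascl2 (97.6%) stood apart. Embryo 57 stood apart in ExE for Ehmt2 (12.6 CPM), for the maternal shares of Gm32885 (25.0%), Car4 (28.6%), H19 (99.0%) and Tssc4 (89.4%), and for the autosomal maternal share (43.9%). Its epiblast stood apart for Trh (46.2 CPM), AU021092 (0.388 CPM), Wnt6 (0.388 CPM), Rnf2 (28.3 CPM) and the maternal share of Phlda2 (96.4%). In embryo 53 the ExE stood apart for Gm9564 (1.03 CPM), Wnt6 (26.4 CPM) and the maternal share of Phlda2 (93.0%). In embryo 49 they were Trh in ExE (0.735 CPM), the maternal share of Cd81 in ExE (91.8%) and that of T in epiblast (35.3%). Single values in the epiblast of other embryos were Wnt6 in embryo 50 (0.430 CPM), the maternal share of Fgfbp1 in embryo 48 (30.0%), that of Sfmbt2 in embryo 56 (40.0%) and that of 2410003L11Rik in embryo 59 (0.0%).

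The shift of the parental ratio differed between the crosses for 12 genes, tested by the strain term of the edgeR model and given as the log2 change of the BDF1 to CAST ratio. Among those reported here it was positive for 2810417H13Rik (0.79), Car4 (1.17), Trip4 (0.44), Mt1 (1.13), Tmem242 (0.20), Apoc4-apoc2 (2.67) and Apoc2 (3.39). It was negative for Impact (-0.99), Phlda2 (-1.69), Cd81 (-1.64) and R74862 (-2.70).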

How the results depend on the processing

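The count of expression calls stayed within 1.5 times of 6146 under another scaling, DESeq2 and no filter, within each cross, and without any 1 embryo (5868 to 6413). Calls of at least 2-fold numbered 2992, 2942 to 3077 without 1 embryo, and 5503 with no filter, where more genes were tested and the median of all genes was -0.51. The 31 parental calls became 19 with at least 50 reads, 16 with no strain term, 17 with limma, 580 in the Bdf1xCast and 295 in the CastxBdf1 embryos alone, where parent and strain are the same term, and 25 to 32 without 1 embryo. The 814 strain calls became 472 with limma and 621 to 873 without 1 embryo. The autosomal maternal share differed by -0.292 to -0.113 without 1 embryo. In Bdf1xCast embryos alone the sign turned for 2810417H13Rik (0.15) and Car4 (0.58), and in CastxBdf1 embryos alone for Mt1 (-0.76), Apoc4-apoc2 (-0.22) and Apoc2 (-0.81). Without the embryo block, that is without the pairing, the counts were 5911, 2926, 24 and 696, and among genes named for the parental ratio 8 calls were lost. The autosomal share difference of -0.182 without the pairing had a permutation p of 0.466. Of the values for single named genes under an alternative, 1545 of those for expression kept their call, 15 lost it and 1 gained it; for the parental ratio 552 kept it, 81 lost it and 5 turned sign. With values at the score's limit moved by 0.5 points toward 50%, chosen after seeing the data, the sign turned for the maternal allele of Sfmbt2 (0.31) and Slc38a4 (0.99) and the paternal allele of H19 (1.47). The causes were not tested. Depth limits the allelic shares of genes with few reads, such as Sfmbt2 in epiblast.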

Other observations

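Embryo 57, a CastxBdf1 male, had high levels of target genes of p53, the transcription factor activated by DNA damage, in both tissues. These genes were chosen after the values were seen. Cdkn1a, a cell cycle inhibitor, was at 274.4 CPM in its epiblast and 218.9 in its ExE, against 8.47 to 44.2 and 3.04 to 22.2 CPM in the other 10 embryos. Ccng1, cyclin G1, was at 636.8 and 632.4 CPM, against medians of 61.4 and 81.1. Trp53inp1 was at 59.8 and 44.9 CPM, against 2.09 to 7.26 and 3.36 to 11.3. Btg2, an antiproliferative gene, was at 86.2 and 167.5 CPM, against 14.0 to 36.8 and 13.2 to 46.2. Phlda3 was low throughout, 0.776 CPM in the epiblast of embryo 57 and 3.01 in its ExE, against at most 1.21 and 0.704. A single embryo allows no test.

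Primitive streak markers set the epiblasts apart from each other. Embryos 49, 50, 51 and 59 summed to between 15.2 and 77.8 CPM and the other 7 to between 313.3 and 1016 CPM.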
